A study of Mus musculus with 7 samples.

Results

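Krt7, Krt8, Krt18 and Krt19 encode the keratins of simple epithelia, and their levels are described here in mouse embryonic stem cells with a hairpin against Mettl3. The members are the probe sets that the array annotation assigns to exactly 1 of these symbols, 57 of 1201338 probe sets: 24 of Krt7, 19 of Krt8, 6 of Krt18 and 8 of Krt19. Of these, 48 exceeded the median log2 level over the whole array (6.02) and entered the gene values, the median of a gene's kept probe sets on each array. All 4 genes had a gene value, among 16353 genes. They were chosen by earlier results of these arrays, selected on the differences of the Mettl3 hairpins from luciferase, in which Krt8, Krt18 and Krt19 were higher. Their differences from luciferase are therefore given as a description, with no p-value.

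The cells were of the J-1 line, infected in every group with a lentivirus that carried a short hairpin RNA and grown in full media. Mettl3 shRNA #1 (hairpin 1) was used in 2 samples, Mettl3 shRNA #2 (hairpin 2) in 2, and a hairpin against luciferase, which mouse cells lack, in 3. Total RNA was labelled with biotin and hybridised to exon arrays, which carry probe sets for single exons, with 1 array per sample. Whether the samples of each group were separate infections or cultures is not stated, and p-values therefore reflect the spread among these samples only, which may be technical.

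Keratins are intermediate filament proteins that assemble only as pairs of a type I chain (Krt18 and Krt19 here) with a type II chain (Krt7 and Krt8). Krt8 and Krt18 are the first keratins made by the mouse embryo, where they mark the trophectoderm, the outer epithelium of the blastocyst, and later all simple epithelia. Krt7 and Krt19 are made in narrower sets of ductal, glandular and extraembryonic epithelia. Embryonic stem cells derive from the inner cell mass and stand for cells that have not yet formed these epithelia.

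The genes of Krt7, Krt8 and Krt18 lie on chromosome 15, and that of Krt19 on chromosome 11. In the mouse the type I gene Krt18 sits beside Krt8 at the end of the type II cluster, and no other gene with a value lay between them. Promoter windows, from 250 bases before the annotated start, are shown because the values of these neighbours lay close together while those of Krt7, in the same cluster, differed less from luciferase. They come from RefSeq on build GRCm38.p6, read 5′ to 3′ on the gene's own strand: Krt8 from chr15:102004293-102004592 (minus strand), Krt18 from chr15:102027966-102028265 (plus strand) and Krt7 from chr15:101412153-101412452 (plus strand). Capitals mark TATAA, the core of the TATA box, and GGGCGG, the GC box read by Sp1, on either strand.
Krt8: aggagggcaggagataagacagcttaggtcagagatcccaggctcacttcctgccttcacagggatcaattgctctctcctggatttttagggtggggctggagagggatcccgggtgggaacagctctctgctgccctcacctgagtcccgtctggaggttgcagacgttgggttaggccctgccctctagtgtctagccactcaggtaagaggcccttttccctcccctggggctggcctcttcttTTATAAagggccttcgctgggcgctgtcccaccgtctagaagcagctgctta
Krt18: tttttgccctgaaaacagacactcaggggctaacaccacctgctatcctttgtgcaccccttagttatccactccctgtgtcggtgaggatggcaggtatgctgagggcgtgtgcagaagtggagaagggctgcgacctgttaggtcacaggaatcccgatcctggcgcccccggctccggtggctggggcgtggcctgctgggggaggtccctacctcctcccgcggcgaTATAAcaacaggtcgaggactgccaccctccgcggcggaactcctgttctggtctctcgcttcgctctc
Krt7: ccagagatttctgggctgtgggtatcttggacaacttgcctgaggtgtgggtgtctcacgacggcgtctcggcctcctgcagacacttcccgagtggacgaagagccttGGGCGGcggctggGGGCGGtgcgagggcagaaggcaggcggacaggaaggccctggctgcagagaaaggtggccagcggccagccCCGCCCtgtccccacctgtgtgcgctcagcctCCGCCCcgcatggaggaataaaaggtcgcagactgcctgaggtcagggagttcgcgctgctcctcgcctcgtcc
The Krt8 window held TATAA on both strands, overlapping, at positions 249 and 250, and the Krt18 window held it once, at position 232. From the annotated start these lay at -2 and -1 bases for Krt8 and at -19 for Krt18. Neither held GGGCGG. The Krt7 window held GGGCGG 4 times, at positions 110, 123, 195 and 227, and no TATAA. Of all 32851 promoter windows of this length in the table, 24.9% held TATAA and 35.7% held GGGCGG. The AP-1 motif TGANTCA was in none of these 3 windows and in 7.81% of all, and GGAA, the ETS core, was in each of the 3 and in 96.0% of all. These are matches of letters within the windows, and their part in the keratin values was not tested. GC content was 58.0% for Krt8, 61.3% for Krt18 and 66.3% for Krt7, against a median of 52.7% over all windows.

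The arrays had nearly equal medians over all probe sets (6.03 to 6.07), and samples of a group correlated at 0.988 or more over gene values. RMA gives the arrays a common distribution, which would hide a change shared by most transcripts. On the second principal component (21.4% of the variance of gene values), hairpin 1 replicate 2 lay furthest out, at -17.8. Luciferase replicate 3, at -10.4, was the only other array on that side. Luciferase replicate 2 (11.5) and hairpin 2 replicate 2 (10.1) lay about as far out on the other side as luciferase replicate 3. Differences resting on the arrays of the negative side, called those that stood apart, are also given without them. Mettl3, the catalytic subunit of the RNA m6A writer, measured 8.97 and 8.67 with hairpin 1, 8.71 and 8.66 with hairpin 2, and 10.38, 10.46 and 10.14 with luciferase. It fell by 1.50 with hairpin 1 and by 1.64 with hairpin 2 on the log2 scale (limma adjusted p = 0.000361 and 0.000424). The difference between the hairpins was 0.14 (95% interval -0.17 to 0.44, limma adjusted p = 0.843). The stem cell factors Nanog (13.0 to 13.2) and Pou5f1 (12.5 to 12.9) were high on all 7 arrays.

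Krt8, the type II chain that pairs with Krt18, measured 10.40 and 10.49 with hairpin 1, 9.62 and 9.77 with hairpin 2, and 9.34, 9.28 and 9.16 with luciferase (log2 gene values). The 3 groups did not overlap, and hairpin 2 lay between hairpin 1 and luciferase. Means were 10.45 ± 0.063 with hairpin 1, 9.70 ± 0.11 with hairpin 2 (SD, n = 2 each) and 9.26 ± 0.092 with luciferase (SD, n = 3). Krt8 was 2.27-fold higher than luciferase with hairpin 1 (log2 difference 1.18 ± 0.0997, SE) and 1.35-fold higher with hairpin 2 (0.43 ± 0.0997, SE). In bulk RNA, a larger share of cells that make keratin and more keratin RNA per cell cannot be told apart.

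In gene values Krt18, the type I partner of Krt8, showed the larger differences of the pair. It measured 9.65 and 9.68 with hairpin 1, 8.95 and 8.82 with hairpin 2, and 8.34, 8.27 and 8.12 with luciferase. The order of groups was the same as for Krt8, again with no overlap. Means were 9.66 ± 0.020 with hairpin 1, 8.88 ± 0.096 with hairpin 2 (SD, n = 2 each) and 8.24 ± 0.11 with luciferase (SD, n = 3). That is 2.67-fold higher than luciferase with hairpin 1 (log2 difference 1.42 ± 0.101, SE) and 1.56-fold higher with hairpin 2 (0.64 ± 0.101, SE). The gap between the partners, Krt18 minus Krt8, was -0.75 and -0.82 with hairpin 1, -0.67 and -0.95 with hairpin 2, and -0.999, -1.01 and -1.04 with luciferase. All 4 hairpin arrays thus had a smaller gap in gene values than the 3 luciferase arrays. Over kept probe sets the median differences with hairpin 1 lay close, at 1.23 for Krt18 and 1.20 for Krt8. With hairpin 2 they were 0.64 and 0.45. The brightest probe set differed less for Krt18 than for Krt8. With hairpin 1 it differed by 0.95 against 1.24, and with hairpin 2 by 0.37 against 0.39. The gap says nothing of which partner is more abundant, since each is read by its own probes.

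Krt19, a small type I keratin that lacks most of the tail domain, was dimmer and more variable. It measured 7.40 and 7.55 with hairpin 1, 7.02 and 7.34 with hairpin 2, and 6.86, 6.77 and 7.06 with luciferase. The hairpin 1 arrays lay above all others, while hairpin 2 replicate 1 fell within the luciferase range. Krt19 was 1.49-fold higher than luciferase with hairpin 1 (log2 difference 0.58 ± 0.128, SE) and 1.21-fold higher with hairpin 2 (0.28 ± 0.128, SE). Without hairpin 2 replicate 2 the hairpin 2 difference was 0.12, and without hairpin 2 replicate 1 it was 0.44.

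Krt7, a type II keratin of ducts and glands, differed least. It measured 7.72 and 7.78 with hairpin 1, 7.38 and 7.52 with hairpin 2, and 7.44, 7.46 and 7.46 with luciferase. Hairpin 1 lay above both other groups by a small step, and the hairpin 2 arrays lay on either side of the luciferase arrays. The log2 difference from luciferase was 0.30 ± 0.0905 (SE) with hairpin 1, a 1.23-fold difference, and -0.0042 ± 0.0905 (SE) with hairpin 2. The middle 90% of all genes lay between -0.35 and 0.40 with hairpin 1 and between -0.30 and 0.38 with hairpin 2, so both Krt7 values and the hairpin 2 value of Krt19 were within the range of ordinary genes.

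**Figure D1:**
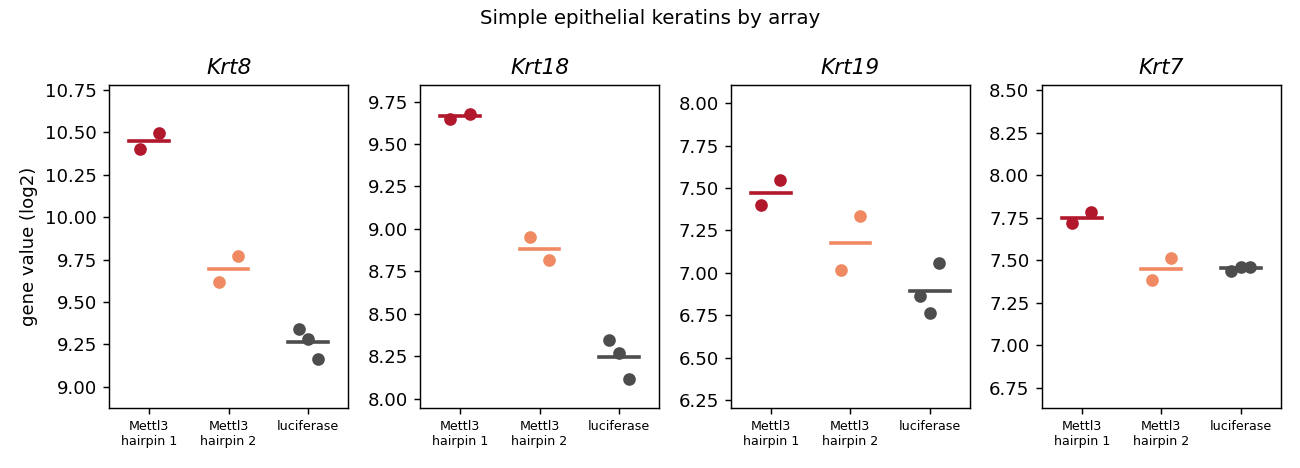
Log2 gene values of Krt8, Krt18, Krt19 and Krt7 on each array (points) with the group mean (bars), hairpin 1 at left, then hairpin 2, then luciferase; all panels span the same number of log2 units. Krt8 and Krt18 fall into 3 steps, with hairpin 1 at 10.40 to 10.49 and 9.65 to 9.68, while the Krt7 arrays of hairpin 2 (7.38 and 7.52) lie on either side of luciferase (7.44 to 7.46).

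By limma over all genes, 3 of the 4 keratins (Krt8, Krt18 and Krt19) were called higher with hairpin 1, where 3.97% of genes were, and 2 of 4 (Krt8 and Krt18) with hairpin 2, where 2.71% were. These counts come from the comparisons that chose the genes, so they describe that choice and nothing is read from them. Every hairpin array lay above every luciferase array for 4 of 4 keratins with hairpin 1 (20.9% of genes) and for 2 of 4 with hairpin 2 (22.9% of genes). The same comparisons chose the genes, so nothing is read from these counts either. They include Krt7, whose probe sets went both ways. When 1 of the 7 arrays was left out, the differences with hairpin 1 were 1.13 to 1.23 for Krt8, 1.36 to 1.47 for Krt18 and 0.50 to 0.66 for Krt19. Those with hairpin 2 were 0.36 to 0.51 for Krt8 and 0.57 to 0.71 for Krt18. The hairpin 2 call of Krt8 was lost whichever array was left out. The calls of Krt18 with hairpin 2 and of Krt19 with hairpin 1 held in only some of these fits. Without hairpin 1 replicate 2 and luciferase replicate 3 together, the differences with hairpin 1 were 1.09 for Krt8, 1.34 for Krt18, 0.58 for Krt19 and 0.27 for Krt7, and those with hairpin 2 were 0.38 for Krt8, 0.58 for Krt18 and 0.36 for Krt19.

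The exon probe sets showed how far each gene moved as a whole. All 18 kept Krt8 probe sets were higher than luciferase with hairpin 1, by 0.91 to 1.32 (median 1.20), and all 18 with hairpin 2, by 0.22 to 0.58 (median 0.45). For each of them every hairpin array exceeded every luciferase array. Among gene values, 20.9% of genes did so with hairpin 1 and 22.9% with hairpin 2, and the share of all kept probe sets was not counted. The brightest Krt8 probe set measured 11.49 and 11.48 with hairpin 1, 10.60 and 10.68 with hairpin 2, and 10.27, 10.16 and 10.31 with luciferase. The Krt8 probe set below the filter differed by -0.13 with hairpin 1 and -0.01 with hairpin 2. A processed copy of Krt8, listed as a pseudogene, exists in the mouse genome, and probe sets with letters shared by both cannot tell them apart.

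All 6 Krt18 probe sets were higher as well, by 0.72 to 1.54 (median 1.23) with hairpin 1 and by 0.37 to 0.80 (median 0.64) with hairpin 2, without overlap with luciferase. The brightest measured 11.51 and 11.42 with hairpin 1, 10.81 and 10.95 with hairpin 2, and 10.63, 10.35 and 10.54 with luciferase. Of the 7 kept Krt19 probe sets, 6 were higher with hairpin 1 (range -0.10 to 0.96) and 6 with hairpin 2 (range -0.07 to 0.47), and 5 were free of overlap with luciferase for each hairpin. Among all kept probe sets of the arrays, 53.0% were higher with hairpin 1 and 55.9% with hairpin 2. Their share free of overlap was not counted, so nothing is read from the counts without overlap.

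The Krt7 probe sets went both ways. With hairpin 1, 7 of 17 were higher and 10 lower (range -0.59 to 1.28, median -0.06), and with hairpin 2, 6 were higher and 11 lower (range -0.47 to 0.66, median -0.06). One of the dimmer kept probe sets measured 6.84 and 7.03 with hairpin 1, 6.23 and 6.40 with hairpin 2, and 5.96, 5.62 and 5.36 with luciferase. A brighter one ran the other way, at 9.13 and 8.70 with hairpin 1, 9.44 and 9.15 with hairpin 2, and 9.54, 9.56 and 9.42 with luciferase. The Krt7 gene value with hairpin 1 (0.30) thus differed in sign from the median of its probe set differences, and no direction is given for the gene as a whole. Averaging the probe sets in place of the median gave 0.13.

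**Figure D2:**
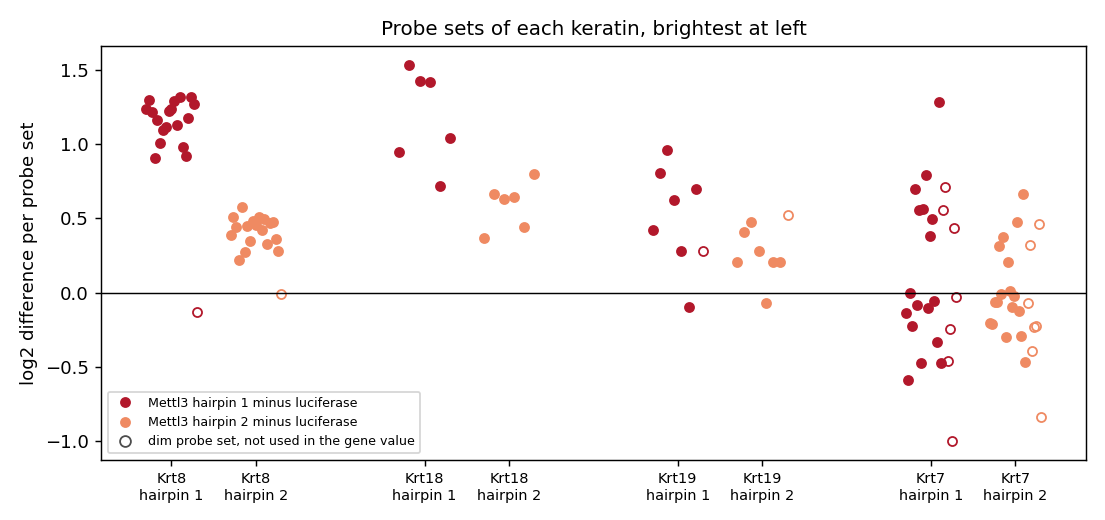
Log2 difference from luciferase of each probe set (points), hairpin 1 beside hairpin 2 for each keratin, with the brightest probe set at left; open circles are dim probe sets outside the gene value. The Krt8 points form a tight group at 0.91 to 1.32 for hairpin 1 and 0.22 to 0.58 for hairpin 2, whereas the kept Krt7 points spread from -0.59 to 1.28 for hairpin 1.

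The hairpins were also set against each other. The keratins had been chosen with the values of each hairpin against luciferase known, and those same hairpin arrays enter here, so genes picked for a high level with hairpin 1 are favoured and this fit is no independent test of them. Krt8 was 1.68-fold higher with hairpin 1 than with hairpin 2 (log2 difference 0.75, 95% interval 0.51 to 1.00, limma adjusted p = 0.0448), and all 18 kept probe sets were higher with hairpin 1, by 0.46 to 0.99. Krt18 was 1.71-fold higher (0.78, 95% interval 0.53 to 1.03, limma adjusted p = 0.0438), with 6 of 6 probe sets higher, by 0.24 to 0.87. Krt19 (0.29, 95% interval -0.02 to 0.61, limma adjusted p = 0.597) and Krt7 (0.30, 95% interval 0.08 to 0.52, limma adjusted p = 0.408) were not called.

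Of all genes 9 were called higher with hairpin 1 than with hairpin 2 (0.055%), Krt8 and Krt18 among them, and 8 were called lower (0.0489%). For the reason given above, nothing is read from the keratins' place among them. In this comparison 1435 genes had an unadjusted p below 0.05. For all 4 keratins both hairpin 1 arrays lay above both hairpin 2 arrays, as they did for 16.8% of genes. The calls of Krt8 and Krt18 were narrow: with any single array left out neither passed (Krt8 at 0.68 to 0.83, limma adjusted p 0.0635 to 0.401, and Krt18 at 0.71 to 0.85, limma adjusted p 0.0635 to 0.368). Without hairpin 1 replicate 2 and luciferase replicate 3 together, they were at 0.71 (limma adjusted p = 0.301) and 0.76 (limma adjusted p = 0.264). With the replicate number as a block, they were at 0.75 (limma adjusted p = 0.104) and 0.78 (limma adjusted p = 0.0887). The genes called higher with hairpin 1 also held the Y-linked Kdm5d (1.75, limma adjusted p = 0.0030) and Eif2s3y (0.78, limma adjusted p = 0.0448), chosen after their values were seen. The part of differences between the infected cultures in the keratin values was not tested.

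The genes beside the keratins did not pass the test with either hairpin. Krt78, the tested gene next to Krt8 on its far side, differed by -0.03 with hairpin 1 and -0.11 with hairpin 2 (limma adjusted p = 0.915 and 0.604). The translation factor gene Eif4b, next to Krt18, differed by -0.06 with hairpin 1 and 0.02 with hairpin 2 (limma adjusted p = 0.743 and 0.918). The neighbours of Krt7, Krt80 (-0.21 and -0.08) and Krt88 (-0.12 and -0.32), and those of Krt19, Krt15 (-0.07 and 0.06) and Krt9 (-0.14 and -0.12), were also not called with hairpin 1 or hairpin 2. None of the other 23 tested keratin genes of chromosome 15 was called by limma with either hairpin (medians -0.07 with hairpin 1 and -0.12 with hairpin 2). At an unadjusted p below 0.05, 2 were lower with hairpin 1 and 3 with hairpin 2, and none was higher.

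**Figure D3:**
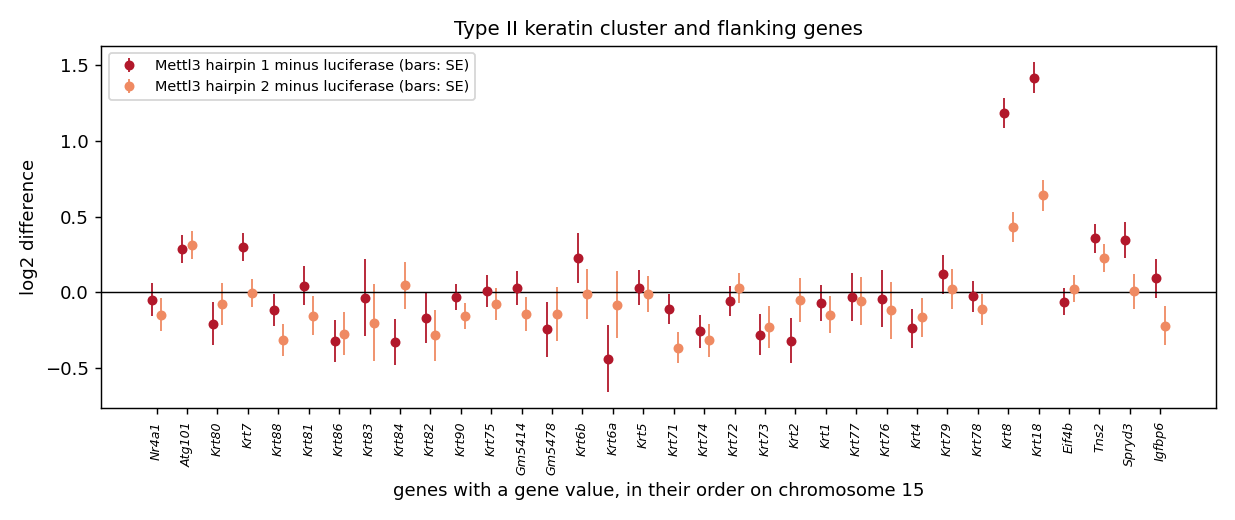
Log2 difference from luciferase (points, with bars for the SE of the fit) of the type II keratin cluster and flanking genes, in their order on chromosome 15, with hairpin 1 left of hairpin 2 for each gene. Krt8 and Krt18 stand out at 1.18 and 1.42 for hairpin 1, between Krt78 at -0.03 and Eif4b at -0.06.

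Over both keratin clusters, 48 of 49 other keratin genes were tested, with medians of -0.09 for hairpin 1 and -0.11 for hairpin 2 against -0.01 and 0.01 over all genes. At an unadjusted p below 0.05, 4 were lower with hairpin 1, a level 3629 of all 16353 genes reached in either direction. By adjusted p, 1 rose with hairpin 1, where 3.97% of all genes did, and none fell. It was Krt17, a type I keratin of basal and stressed epithelia, at 9.22 and 9.34 with hairpin 1, 9.04 and 9.26 with hairpin 2, and 8.70, 8.82 and 8.69 with luciferase. Its log2 difference was 0.54 with hairpin 1 (limma adjusted p = 0.0153) and 0.41 with hairpin 2 (limma adjusted p = 0.0630), and the hairpin 1 call was lost without luciferase replicate 1, hairpin 1 replicate 1 or hairpin 1 replicate 2. With hairpin 2, none rose and 1 fell, the type I keratin Krt23 (-0.42, limma adjusted p = 0.0474, against -0.14 with hairpin 1). That call was lost when any luciferase array or either hairpin 2 array was left out, and 1.08% of all genes were called lower with hairpin 2 (1.93% with hairpin 1). At an unadjusted p below 0.05, 9 of the 48 were lower and 1 higher with hairpin 2. Among all genes 3059 reached that level in either direction.

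Of 15 other intermediate filament genes, 4 rose with hairpin 1 and none fell (median -0.05), where 3.97% of all genes rose. With hairpin 2, where 2.71% of all genes rose, 2 rose and none fell (median 0.03). At an unadjusted p below 0.05, 1 was lower with each hairpin. Ina, the neuronal filament alpha-internexin, rose by 1.33 with hairpin 1 and 1.27 with hairpin 2 (limma adjusted p = 0.000168 and 0.000414). Its difference of hairpin 1 from hairpin 2 was 0.06 (95% interval -0.15 to 0.28, limma adjusted p = 0.900). The light neurofilament chain Nefl rose by 0.70 with hairpin 1 and 0.50 with hairpin 2 (limma adjusted p = 0.0079 and 0.0430), and the progenitor filament Nes by 0.59 with hairpin 1 (limma adjusted p = 0.0146). Nefl with hairpin 2 kept its call without luciferase replicate 3 only, and the hairpin 1 calls of Nefl and Nes were lost without hairpin 1 replicate 1. Nes turned to -0.090 with the stricter filter, and its call was also lost with the replicate block and without the arrays that stood apart. Vim, the filament of mesenchymal cells, was at -0.10 with hairpin 1 and -0.25 with hairpin 2 (limma adjusted p = 0.656 and 0.276).

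Keratin filaments are anchored to cell junctions by desmosomal and linker proteins. Among all genes, 3.97% rose with hairpin 1 and 2.71% with hairpin 2. Of 16 such linker genes, 1 rose with each hairpin and none fell, with medians of 0.06 for hairpin 1 and 0.03 for hairpin 2. With hairpin 1 it was the desmosomal cadherin Dsg2 (0.51, limma adjusted p = 0.0370, against 0.41 with hairpin 2, limma adjusted p = 0.100). With hairpin 2 it was the desmosomal membrane protein gene Perp (0.65, limma adjusted p = 0.0120, against 0.28 with hairpin 1, limma adjusted p = 0.171). The Dsg2 call was kept only without hairpin 1 replicate 2 or luciferase replicate 3, and the Perp call was lost when either hairpin 2 array was left out. Dsp, the desmoplakin that holds keratin to the desmosome, was at 0.30 with hairpin 1 and 0.31 with hairpin 2 (limma adjusted p = 0.0936 and 0.109).

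Genes of epithelial junctions and identity showed several rises and no fall. Of 28 tested, 7 rose with hairpin 1 (median 0.22), where 3.97% of all genes did, and 5 with hairpin 2 (median 0.06), where 2.71% did. None was lower at an unadjusted p below 0.05, which 3629 of all 16353 genes reached in either direction with hairpin 1 and 3059 with hairpin 2. Occludin (Ocln), a tight junction protein, rose by 0.58 with hairpin 1 and 0.66 with hairpin 2 (limma adjusted p = 0.0102 and 0.0088). The membrane serine protease gene Prss8 rose by 0.74 with hairpin 1 and 0.51 with hairpin 2 (limma adjusted p = 0.0065 and 0.0404). Crb3, an apical polarity gene, rose by 0.56 with hairpin 1 (limma adjusted p = 0.0173) and was at 0.04 with hairpin 2. Elf3, an epithelial ETS factor, rose by 0.56 with hairpin 2 (limma adjusted p = 0.0258) and by 0.44 with hairpin 1 (limma adjusted p = 0.0496).

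The tricellular junction gene Marveld2 and the epithelial splicing regulator Esrp2 rose with each hairpin (0.55 and 0.54 with hairpin 1, 0.50 and 0.49 with hairpin 2, limma adjusted p = 0.0121, 0.0167, 0.0256 and 0.0351 in that order). The junction gene Cgn rose with hairpin 1 (0.49, limma adjusted p = 0.0140). E-cadherin (Cdh1) was at 0.32 with each hairpin (limma adjusted p = 0.0626 with hairpin 1 and 0.0851 with hairpin 2), and Epcam at -0.13 with hairpin 1 and -0.11 with hairpin 2. The mean level of the list was 9.20 to 9.27 with hairpin 1, 9.16 to 9.20 with hairpin 2 and 9.00 to 9.05 with luciferase. The counts depended on single arrays, and 2 rose with hairpin 1 when either hairpin 1 array was left out. With hairpin 2, none rose when either hairpin 2 array was left out, and 1 or 2 rose when a luciferase array was. They depended on processing as well: 1 rose with hairpin 1 and 0 with hairpin 2 with no filter on dim probe sets, 13 and 11 with the mean of probe sets, and 3 and 1 with the replicate block. The stricter filter gave 11 with hairpin 1, as did an intensity trend, and centred arrays gave 2 with hairpin 2 and quantile normalization 3. Without hairpin 1 replicate 2 and luciferase replicate 3 together, 1 rose with each hairpin. No gene of this list was called by limma between the hairpins, where 3 were higher with hairpin 1 at an unadjusted p below 0.05.

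Some genes of transcription factors with reported roles at keratin genes rose with hairpin 1. Of 15 AP-1, ETS, SP/KLF and related genes, 4 rose with hairpin 1 and none fell (median 0.08), where 3.97% of all genes rose. None was called with hairpin 2 (median 0.05, with 2 higher and 2 lower at an unadjusted p below 0.05), where 2.71% of all genes rose. Klf6, a zinc finger factor, rose by 0.73 (limma adjusted p = 0.0031), the AP-1 subunit gene Jun by 0.63 (limma adjusted p = 0.0091), the ETS factor gene Ets1 by 0.56 (limma adjusted p = 0.0196) and the AP-1 gene Junb by 0.44 (limma adjusted p = 0.0281). With hairpin 2 the difference of Jun was 0.36 (limma adjusted p = 0.102), and 3059 of all genes had an unadjusted p below 0.05 there. When either hairpin 1 array was left out, 1 of the 15 rose with hairpin 1, as it did without hairpin 1 replicate 2 and luciferase replicate 3 together. Leaving out luciferase replicate 1 gave 2. No gene of this list was called by limma between the hairpins (6 were higher with hairpin 1 at an unadjusted p below 0.05), where its median was 0.24 against -0.02 over all genes.

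Markers of other cells that make keratin, or that cultures of stem cells can hold, moved in few cases. Over all genes, 3.97% rose and 1.93% fell with hairpin 1, and 2.71% rose and 1.08% fell with hairpin 2. Of 13 tested trophectoderm genes 1 rose with each hairpin and none fell (medians -0.07 with hairpin 1 and -0.03 with hairpin 2). That gene was Fgfr2, a receptor of fibroblast growth factors (0.68 with hairpin 1 and 0.93 with hairpin 2, limma adjusted p = 0.0062 and 0.0024), with the hairpin 1 call lost without hairpin 1 replicate 1. The trophectoderm regulators Cdx2 (-0.11 with hairpin 1 and -0.03 with hairpin 2), Eomes (-0.25 and -0.04) and Gata3 (-0.26 and 0.06) were not called, and the mean level of the list was 7.56 to 7.57 with hairpin 1, 7.66 to 7.69 with hairpin 2 and 7.59 to 7.66 with luciferase. Of 18 primitive and visceral endoderm genes 1 fell with each hairpin and none rose, the endocytic receptor gene Cubn (-0.87 with hairpin 1 and -0.66 with hairpin 2, limma adjusted p = 0.0011 and 0.0061), with the hairpin 2 call lost when either hairpin 2 array was left out. The medians of that list were -0.13 with hairpin 1 and -0.06 with hairpin 2, and its mean level was 7.94 to 7.95 with hairpin 1, 7.96 to 8.01 with hairpin 2 and 8.03 to 8.09 with luciferase.

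Of 16 tested mesenchymal and feeder markers, 3 rose with hairpin 1 and none fell (median 0.01), where 3.97% of all genes rose. With hairpin 2, where 2.71% of all genes rose, 1 rose and none fell (median -0.03). Smooth muscle actin (Acta2) measured 8.31 and 8.14 with hairpin 1, 7.72 and 7.50 with hairpin 2, and 6.65, 6.94 and 6.94 with luciferase, and rose by 1.38 with hairpin 1 and 0.77 with hairpin 2 (limma adjusted p = 0.000512 and 0.0106). Transgelin (Tagln), which binds actin, measured 8.31 and 8.08 with hairpin 1, 7.43 and 7.31 with hairpin 2, and 6.98, 7.01 and 7.03 with luciferase. It rose by 1.19 with hairpin 1 (limma adjusted p = 0.000361) and was at 0.36 with hairpin 2 (limma adjusted p = 0.0851). Without the filter on dim probe sets Tagln was at 0.88 with hairpin 1 (limma adjusted p = 0.0900). The arrays of both genes stepped down over hairpin 1, hairpin 2 and luciferase without overlap, as Krt8 and Krt18 did. Both were named for the largest differences of their list. The share of all genes with this order was not counted, so nothing is read from it.

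The third, N-cadherin (Cdh2), rose by 0.52 with hairpin 1 (limma adjusted p = 0.0199), a call lost when luciferase replicate 1 or either hairpin 1 array was left out, and the call of Acta2 with hairpin 2 was lost when either hairpin 2 array was. The fibroblast collagen genes Col1a1 (-0.05 with hairpin 1 and -0.18 with hairpin 2), Col1a2 (-0.23 and -0.13) and Col3a1 (-0.06 and -0.09) were not called. The mean level of the list was 7.86 to 7.91 with hairpin 1, 7.73 on both arrays with hairpin 2 and 7.69 to 7.72 with luciferase. The part of other cells in the keratin values was not tested. Of 12 markers of pluripotent cells 1 fell with hairpin 1, the pluripotency-associated F-box gene Fbxo15 (-0.65, limma adjusted p = 0.0075, lost without hairpin 1 replicate 2), and none was called with hairpin 2, where Fbxo15 was at -0.35 (limma adjusted p = 0.106) and 2 were higher and 2 lower at an unadjusted p below 0.05. The medians of this list were -0.10 with hairpin 1 and -0.03 with hairpin 2. Among all genes 1.93% fell with hairpin 1.

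**Figure D4:**
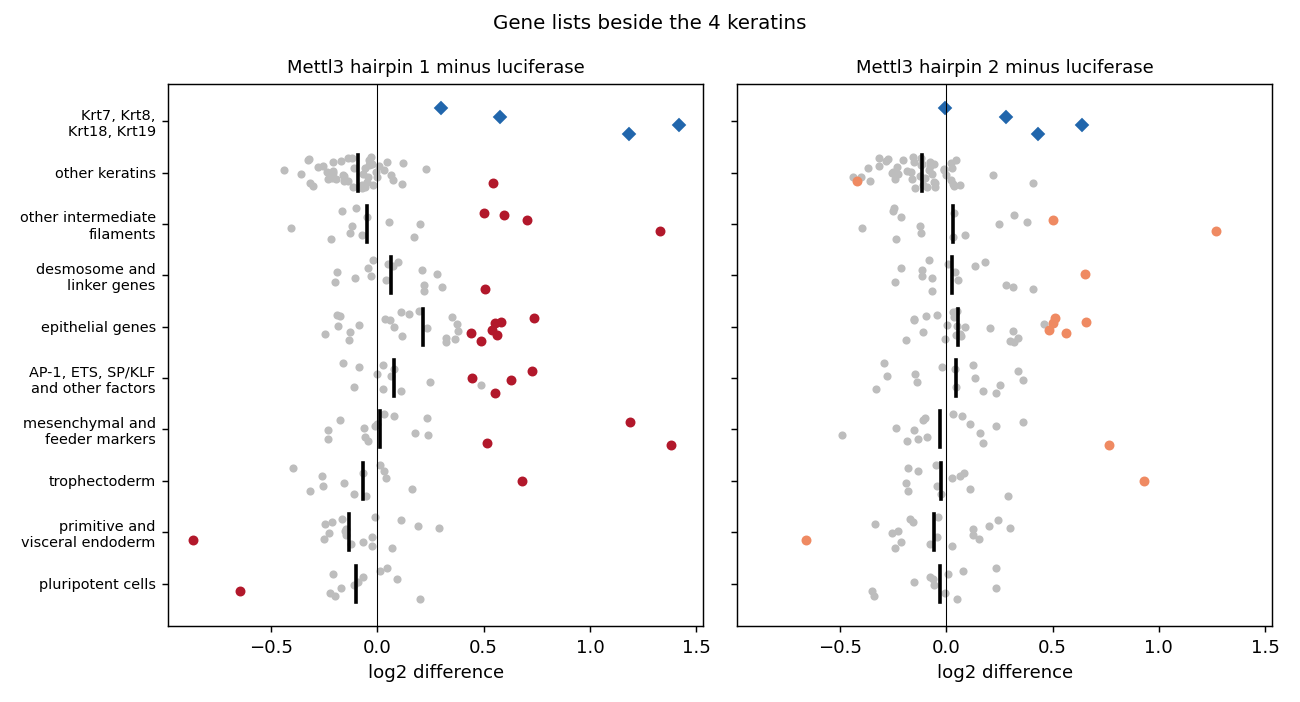
Log2 difference from luciferase of each tested gene, with hairpin 1 in the left panel and hairpin 2 in the right; rows are gene lists, coloured points were called by limma (adjusted p below 0.05), grey points were not, black bars are list medians and diamonds are the 4 keratins. The other keratins centre on -0.09 for hairpin 1 and -0.11 for hairpin 2, and the epithelial genes on 0.22 and 0.06.

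Genes with the pattern most like each keratin were ranked by the root mean square difference over the 7 arrays, each gene centred on its own mean, in log2 units. Krt8 was nearest to Thbs1, a secreted matrix glycoprotein gene (0.128), Shisa6, which encodes an auxiliary subunit of glutamate receptors (0.129), and Tagln (0.130). Krt18 was nearest to Shisa6 (0.128), then Krt8 (0.135), then the actin-binding gene Aif1l (0.158). These distances compare with a median over the genes ranked of 0.509 for Krt8 and 0.604 for Krt18. Counted over all genes, skipped ones included, Krt8 was second in likeness to Krt18. Krt19 lay at 0.395 from Krt18 with 352 genes nearer, and Krt7 at 0.483 with 1412 genes nearer.

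Of these like genes, Shisa6 rose by 1.399 with hairpin 1 and 0.53 with hairpin 2 (limma adjusted p = 0.000168 and 0.0165) and was higher with hairpin 1 than with hairpin 2 by 0.87 (limma adjusted p = 0.0334). With the stricter filter Shisa6 was at 0.80 with hairpin 1 and 0.14 with hairpin 2 (limma adjusted p = 0.489 for hairpin 2), and its hairpin 2 call was also lost with no filter and with the replicate block. Tagln was higher with hairpin 1 than with hairpin 2 by 0.83 (limma adjusted p = 0.0438), but by 0.23 with no filter on dim probe sets (limma adjusted p = 0.861), 0.38 with the stricter filter (limma adjusted p = 0.264) and 0.31 with the mean of probe sets (limma adjusted p = 0.354). Both calls between the hairpins were lost without any 1 of the 7 arrays, as for Krt8 and Krt18, and the hairpin 2 call of Shisa6 was lost when luciferase replicate 1 or either hairpin 2 array was left out. Krt19 was nearest to Wfdc2, a secreted protein gene of glandular epithelia (0.0487, against a median of 0.297 over the genes ranked). Wfdc2 differed from luciferase by 0.61 with hairpin 1 and 0.39 with hairpin 2 (limma adjusted p = 0.0179 and 0.116). It was followed by Pkig, an inhibitor of protein kinase A (0.0892), and the peptide hormone gene Adm2 (0.0913). Krt7 varied little over the arrays (0.141), and its nearest genes were Hinfp (0.0286), Pms2 (0.0345) and Rac1 (0.0381). The arrays are shared by all these distances, so likeness is a description. The like genes were picked for values close to those of the keratins, which were chosen on these same arrays. Their differences and p-values follow in part from that choice and are no independent test.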

How the data were processed

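Per the labels' protocols, total RNA of 7 samples was made into labelled single-stranded DNA and hybridised to exon arrays. The deposited values are log2 expression values per probe set, for which RMA and R 2.11.1 are listed in the submitters' processing notes. The build of the annotation, detection calls and scan dates are not given in the sources used, so scan batches were not examined. Of all probe sets, 311384 had 1 symbol, 6385 several and 883569 none. Older symbols of 45560 probe sets were updated through RefSeq synonyms (GRCm38.p6), and none of them became one of the 4 keratins.

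Gene values were medians, on each array, of at least 3 probe sets with 1 symbol and a mean above 6.02. A limma 3.58.1 fit (R 4.3.3) of all 7 arrays had 1 mean per group (4 residual degrees of freedom). p-values were adjusted by Benjamini-Hochberg over all 16353 genes and called below 0.05. Precision is limited by the number of arrays. The fit was tested on simulated data.

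The 4 keratins, the gene lists and the rules were chosen with earlier results of these data known. Named were the 4 keratins, Mettl3, up to 3 called genes with the largest difference per list and hairpin (the largest where none was called), the 3 genes most like each keratin, and the nearest tested genes on each side. Other list members given beside these, and Kdm5d and Eif2s3y, were chosen after their values were seen. The lists cover other keratins, other intermediate filaments, linkers, epithelial genes, factors, mesenchymal and feeder cells, trophectoderm, primitive and visceral endoderm and pluripotent cells. The alternatives tried were no filter or a stricter one on dim probe sets, the mean of probe sets, centring, quantile normalization, an intensity trend, a replicate block, a fit of only the groups compared and leaving out arrays.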

Additional observations from a re-analysis of the deposited data

Results flagged for a closer look

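The comparison of hairpin 1 with hairpin 2 drew attention to 2 keratins, because the fit called a difference between the hairpins. These genes had been chosen with the values of each hairpin against luciferase known, on the same arrays, so the calls are no independent evidence. Krt8 was higher with hairpin 1 than with hairpin 2 by 0.75 on the log2 scale (limma adjusted p = 0.0448), with means of 10.45 with hairpin 1 and 9.70 with hairpin 2. Krt18 was higher by 0.78 (limma adjusted p = 0.0438), with means of 9.66 with hairpin 1 and 8.88 with hairpin 2. Both calls were lost when any 1 array was left out. Groups of 2 or 3 arrays are too small for a Dixon test of single values, and none was run.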

How the results depend on the processing

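Of 237 recomputed values for the keratins and the counts of called genes, 173 were the same and 39 moved. Another 25 lost a call and 0 changed the sign of a call. For keratin differences from luciferase, same meant a shift smaller than the gene's spread within groups, whether or not a call held. Between the hairpins it meant the same side of the threshold, whatever the size, and lost calls were counted only there. For counts it meant a ratio within a set limit. Krt8 with hairpin 2 was the same in 9 of 9 processing settings but called in 3. The counts of called genes were 964 with hairpin 1, 619 with hairpin 2 and 17 between the hairpins. Without a filter on dim probe sets they were 320, 92 and 0, and with the stricter filter (above 7.57) 1503, 1073 and 34. They were 2259, 1626 and 79 with the mean of probe sets, and an intensity trend gave 29 between the hairpins, where a fit of only those groups gave 2. With the replicate block they were 460, 208 and 3. Without hairpin 1 replicate 2 and luciferase replicate 3, chosen after seeing the data, they were 266, 317 and 0. Leaving out single arrays gave 271 to 729, 63 to 577 and 0 to 4. The lowest were without hairpin 1 replicate 1 for hairpin 1, and without hairpin 2 replicate 2 for hairpin 2 and between the hairpins. Deviations of same-numbered arrays from their group means correlated at -0.262 to 0.0833. In a group of 2 the deviations mirror each other, so these values cannot settle whether the replicate numbers pair the samples.

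The keratins kept their sizes in most settings. Without the filter, Krt8 between the hairpins was 0.79 (limma adjusted p = 0.367) and Krt18 0.78 (0.292). With centred arrays they were 0.76 (limma adjusted p = 0.0530) and 0.79 (0.0631), and with quantile normalization Krt18 was 0.81 (limma adjusted p = 0.0512). With the replicate block they were 0.75 (limma adjusted p = 0.104) and 0.78 (0.0887), in the fit of only the hairpin groups 0.75 (0.121) and 0.78 (0.117), and without the 2 arrays that stood apart 0.71 (0.301) and 0.76 (0.264). Leaving out single arrays gave 0.68 to 0.83 for Krt8 and 0.71 to 0.85 for Krt18. In the same setting without 2 arrays Krt8 with hairpin 1 was 1.09, and the mean of probe sets gave 1.18 for Krt18 with hairpin 1. Krt7 with hairpin 1 was 0.13 with the stricter filter and with the mean of probe sets. Krt7 with hairpin 2 was 0.064 without the filter, -0.066 with centred arrays, and -0.072 to 0.063 when single arrays were left out. Krt19 had no value under the stricter filter. Among the other named genes, Nes with hairpin 1 turned to -0.090 with the stricter filter. The lowest values over the processing settings were 0.27 for Nefl, 0.80 for Acta2, 0.26 for Ets1 and 0.36 for Crb3 with hairpin 1, and 0.26 for Nefl with hairpin 2, while Krt23 with hairpin 2 reached -0.20. The cause of these shifts was not tested.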
